A study of Bos taurus with 14 samples.

Results

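The BCL2 family decides much of whether a cell dies by the mitochondrial route, and 8 of its genes were examined for their level in bovine neutrophils and liver: BCL2L11, BCL2, BCL2L1, BCL2A1, MCL1, BAX, BAK1 and BID. They were chosen because neutrophils live only briefly in blood, and a probe was taken where its gene name, or the symbol or gene number in brackets in its annotation, was that of a member. On the array, 6 of the 8 genes were found, with 7 probes among 15011; 6850 genes had a probe with exactly 1 symbol. BCL2 had 2 probes, which are told apart here by their spot row on the array (row 42 and row 186). MCL1 and BID matched no probe by symbol, gene number or accession and were not analysed here.

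The arrays held total RNA of Holstein cattle, heifers or steers, that were given β-cryptoxanthin, a carotenoid found in citrus fruit, by mouth at 0.2 mg per kg of body weight on day 0. Liver tissue came from 3 animals (58, 61 and 66) and peripheral blood neutrophils from 4 others (25, 26, 32 and 34), each on day 0 and on day 7, which gave 14 single-colour (Cy3) arrays in 4 groups. Every animal received the carotenoid and no untreated animal was among these samples, so a change from day 0 to day 7 cannot be told apart from any other change over that week. The sources used here do not give the age of the animals, whether the day 0 sample preceded the dose, or how the neutrophils were isolated. The liver samples were hybridised on 1 slide and the neutrophil samples on another, so tissue and slide cannot be told apart. Within each slide the day 0 arrays formed the upper row and the day 7 arrays the lower one, so day and position cannot be told apart either.

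Proteins of this family meet at the outer membrane of mitochondria. The anti-apoptotic members BCL2, BCL-XL (from BCL2L1), A1 (from BCL2A1) and MCL1 hold back the effectors BAX and BAK, which otherwise open the membrane, let cytochrome c out and set off the caspases. BH3-only proteins such as BIM (from BCL2L11) and BID sense stress or the loss of survival factors and tip this balance towards death. Mature neutrophils are known for A1 and MCL1, and for a small content of mitochondria, while hepatocytes are rich in them.

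The sequences of the probes for the 5 members that differed between the tissues are given to show what was hybridised. They are as the scanner files give them, in lower case throughout because no base was singled out; of the BCL2L11 probe the first 30 bases are shown, and of the 2 BCL2 probes the one in row 42.
BCL2L11 (first 30 bases): catgtggccgattttccaacggaagcttga
BCL2A1: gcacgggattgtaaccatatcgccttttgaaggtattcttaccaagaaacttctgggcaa
BCL2L1: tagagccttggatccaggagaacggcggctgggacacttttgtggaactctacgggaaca
BCL2 (row 42): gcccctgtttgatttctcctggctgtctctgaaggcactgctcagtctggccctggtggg
BAX: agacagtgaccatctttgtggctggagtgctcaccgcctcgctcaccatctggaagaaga
Each of the 7 probes was spotted once and had a length of 60 bases. The longest run of bases that any of them shared with another probe of the array, on either strand, was 12 to 14 bases, and between 2 member probes 7 to 9 bases, so no probe of one member was a near copy of a probe of another. BCL2L11 was matched through its gene number, which the RefSeq table gives to that symbol, and the second BCL2 probe through a bracketed symbol in the text of its accession field.

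A level is given as log2 of a spot's processed signal minus the 75th percentile of its array, so that 0 is the brightness of the 75th percentile and each step of 1 is a doubling. Levels of different probes are not compared, since each probe binds its target with its own strength. Of the spots, 57.1% to 76.7% were well above background per array, with the lowest share on the day 7 array of neutrophil animal 34, which also correlated least with the other arrays of its tissue (0.924 to 0.945). The tissue labels were checked against markers. The summed level (linear signal over the 75th percentile) of 13 hepatocyte markers (12 on 1 liver array) was 645 to 1131 in liver and 0.259 to 0.423 in neutrophils, and that of 11 neutrophil markers 731 to 1476 in neutrophils and 6.27 to 14.5 in liver. The neutrophil arrays also carried lymphocyte transcripts: the summed level of 13 T and natural killer cell markers lay at 11.02 to 36.9 on the day 0 arrays and at 23.1 to 104 on those of day 7, and 9 to 13 of the 13 were well above background on each array; GZMB, the cytotoxic protease granzyme B, made up 65.5% to 91.9% of that sum. The summed level of 6 platelet and red cell markers was 3.09 to 8.06 on the neutrophil arrays and 1.24 to 1.47 in liver. On each neutrophil array 3 of these 6 were well above background, and their part in the members' levels was not tested. In such bulk samples a change in the number of cells of a type and a change of RNA per cell cannot be told apart.

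The first comparison asked how the members' levels in neutrophils stood against liver at the start of the study. On day 0, 4 of the 6 members were higher in neutrophils (BCL2L11, BCL2A1, BCL2L1 and BAX), BCL2 was lower by both of its probes, and BAK1 did not pass the test. The median difference of the 6 was 1.64 on the log2 scale, beside 0.12 over all 11498 probes tested. The test was limma with Benjamini-Hochberg adjustment over all these probes and a threshold of 0.05; 83.1% of all probes passed it, 43.5% as higher and 39.7% as lower in neutrophils, so the members' count is read against those shares. A step of at least 1 on the log2 scale together with the threshold was met upward by 36.6% of all probes and by the probes of 4 members.

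**Figure D1:**
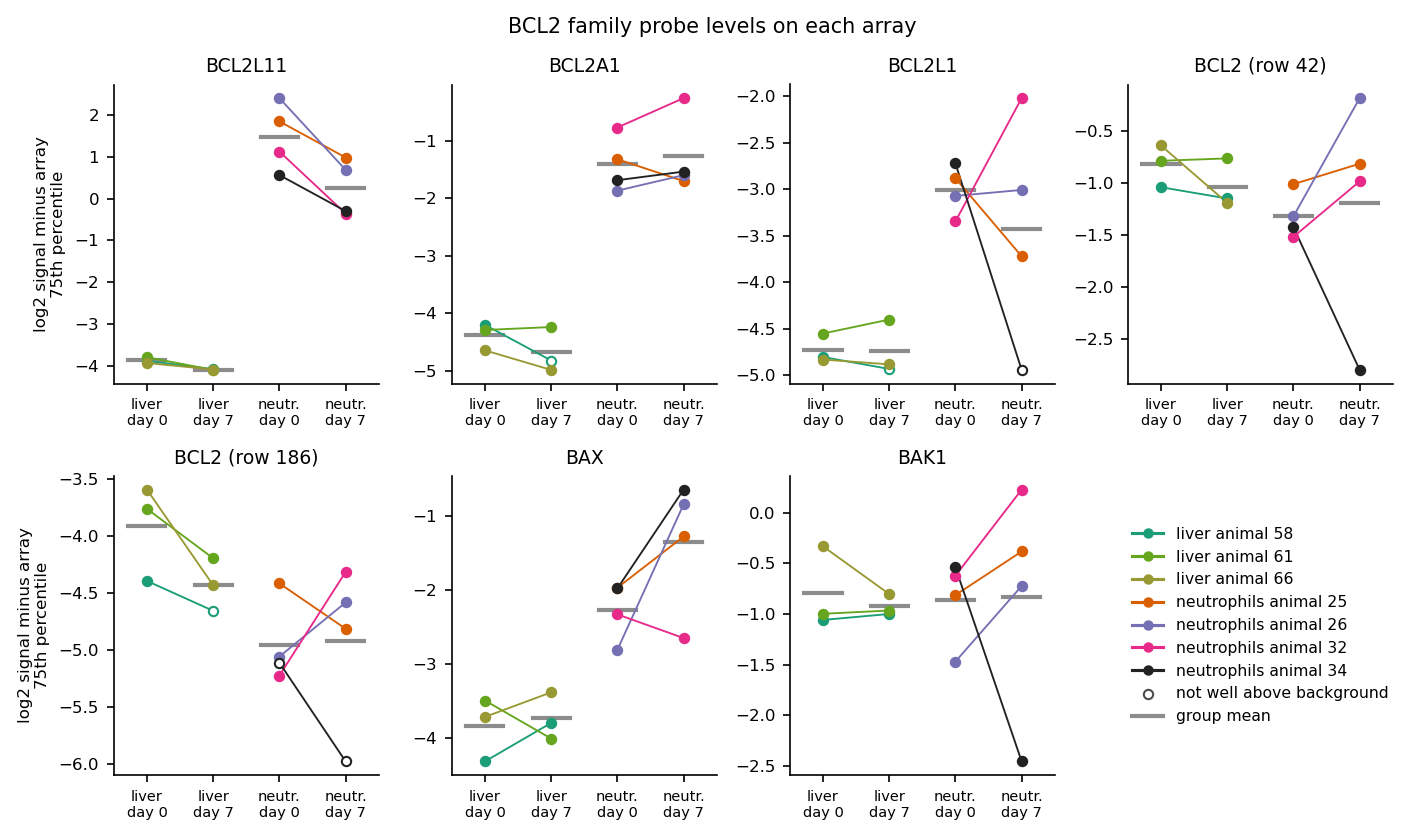
Level (log2 signal minus the array's 75th percentile) of each of the 7 member probes on each of the 14 arrays; lines join the 2 days of 1 animal, grey bars are group means, open circles were not well above background, and each panel has its own axis. BCL2L11, BCL2A1 and BAX lie higher on every neutrophil array than on any liver array, while the ranges for BAK1 overlap.

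BCL2L11, which codes for the BH3-only protein BIM, showed the widest gap of the members. On day 0 its level in liver was -3.87 for animal 58, -3.78 for animal 61 and -3.92 for animal 66, and in neutrophils 1.84 for animal 25, 2.39 for animal 26, 1.12 for animal 32 and 0.56 for animal 34. The groups were far from overlapping: the lowest neutrophil array was above 0 and the SD over the 3 liver arrays was 0.069. The difference was 5.33 ± 0.40 (SE of the fit; n = 4 against 3), which is 40.3-fold, with an adjusted p of 3.87e-06 in limma, and 3.57% of all probes tested lay further up. On day 7 the liver levels were -4.07, -4.08 and -4.07 and the neutrophil levels 0.98, 0.68, -0.36 and -0.30, again without overlap, and the difference was 4.33 ± 0.38, or 20.05-fold (limma, adjusted p = 1.52e-05).

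BCL2A1 codes for A1, an anti-apoptotic protein made mainly in blood cells. On day 0 its level was -4.20, -4.29 and -4.64 in liver and -1.32, -1.87, -0.77 and -1.69 in neutrophils (animals in the order above). Every neutrophil array was brighter than every liver array, by 2.96 ± 0.28 on average (7.80-fold; limma, adjusted p = 1.51e-05). On day 7 the difference was 3.40 ± 0.41 (limma, adjusted p = 9.75e-05). Only 2 of 3 liver arrays were then well above background, so the probe entered that test through the neutrophil group alone, where it is brighter.

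BCL2L1, the gene of BCL-XL, had levels of -4.80, -4.55 and -4.83 in liver and -2.88, -3.07, -3.35 and -2.72 in neutrophils on day 0. The groups did not overlap and differed by 1.72 ± 0.19 (3.30-fold; limma, adjusted p = 4.50e-05). On day 7 the probe was well above background on 2 of 3 liver and 3 of 4 neutrophil arrays and so was not tested; the neutrophil levels of -3.72, -3.01, -2.02 and -4.94 reached down to those of liver (-4.93, -4.40 and -4.88) through animal 34. Without animal 34 the probe entered the test through the neutrophil group alone, with a difference of 1.82 ± 0.43. The array left out was the 1 that reached the liver levels, so this difference cannot stand for day 7.

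BCL2, the founding anti-apoptotic member, was the one member lower in neutrophils. The probe in row 42 had levels of -1.04, -0.79 and -0.64 in liver and -1.01, -1.32, -1.52 and -1.43 in neutrophils on day 0, where animal 25 reached into the liver range. The difference of -0.50 ± 0.18 passed narrowly (limma, adjusted p = 0.0341). It missed the threshold without animal 61, 66, 26, 32 or 34 in turn (adjusted p 0.0543 to 0.112), and in 4 of the other settings (0.0775 to 0.381). The dimmer probe in row 186 had levels of -4.39, -3.76 and -3.59 in liver and -4.41, -5.06, -5.23 and -5.11 in neutrophils. Its difference of -1.04 ± 0.27 (limma, adjusted p = 0.00674) passed in all 14 settings in which it was tested, at -1.28 to -0.34. The row 186 probe was well above background on 3 of 4 neutrophil arrays on day 0. It thus entered the test through the liver group alone, where it is brighter. Both probes pointed the same way on day 0; on day 7 the row 42 difference was -0.16 ± 0.56 (limma, adjusted p = 0.814), positive under 3 other scalings and without animal 34, and row 186 was not tested, being well above background on 2 of 3 liver and 3 of 4 neutrophil arrays.

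The effectors BAX and BAK1, which perforate the mitochondrial membrane, stood apart from each other. BAX had levels of -4.31, -3.49 and -3.71 in liver and -1.97, -2.80, -2.33 and -1.98 in neutrophils on day 0, with no overlap and a difference of 1.57 ± 0.28 (2.96-fold; limma, adjusted p = 0.000828). On day 7 it was 2.37 ± 0.48 (5.17-fold; limma, adjusted p = 0.00225). BAK1 had levels of -1.06, -0.999 and -0.33 in liver and -0.81, -1.47, -0.62 and -0.54 in neutrophils on day 0, which overlap. Its difference was -0.07 ± 0.28 with a 95% interval of -0.72 to 0.59 (limma, adjusted p = 0.836), and on day 7 0.09 ± 0.57 with an interval of -1.22 to 1.40 (adjusted p = 0.899). The sign of the BAK1 difference turned with the scaling, and a difference within these intervals cannot be seen at this number of arrays. On day 7, 3 of 5 members tested were higher and none lower (69.1% of 10208 probes passed, 35% as higher and 32.9% as higher by at least 1 on the log2 scale, as these 3 were). Without animal 34 it was 4, the added one being BCL2L1, which then entered the test through the neutrophil group alone. BCL2A1, counted among the 3 with all animals, entered the day 7 test through that group alone too.

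**Figure D2:**
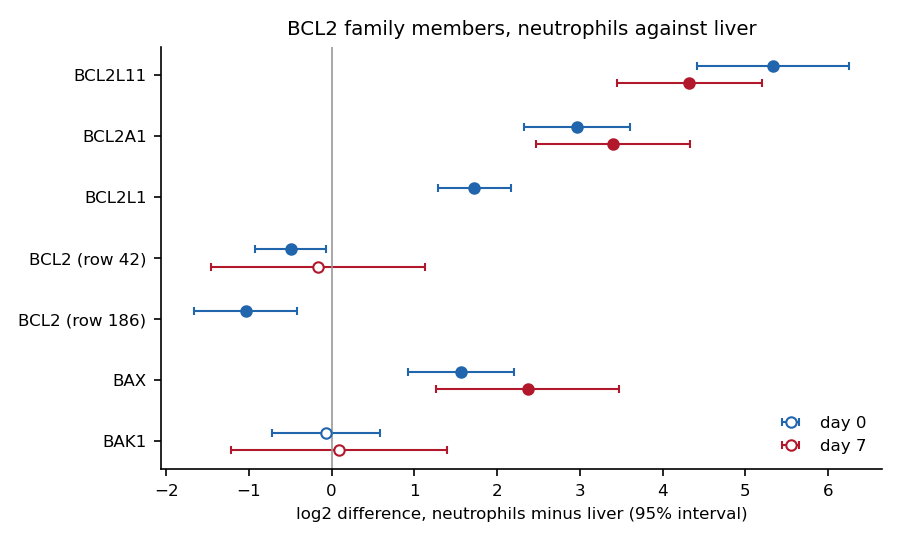
Difference between neutrophils and liver on the log2 scale for each member probe, with 95% intervals of the limma fit, on day 0 (blue) and day 7 (red); filled points passed the threshold of 0.05 on the adjusted p. BCL2L11 stands at 5.33 and 4.33, while both BAK1 intervals span 0; BCL2L1 and BCL2 (row 186) were not tested on day 7.

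The second comparison asked what changed in the neutrophils of the same animal from day 0 to day 7, with the animal as a block. No member passed, and neither did any of the 9450 probes tested (0% called; limma, smallest adjusted p 0.301, with 1267 probes at an unadjusted p under 0.05, of which 832 were higher and 435 lower). In 1 fit over all 14 arrays, 22 probes were higher and 2 lower, none of them a member. The neutrophil day 0 arrays serve both here and in the day 0 tissue comparison, so the values of these comparisons are not independent.

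BCL2L11 was lower on day 7 in 4 of 4 animals, as were 1254 of 9429 probes with a value on every array (13.3%). It went from 1.84 to 0.98 in animal 25, from 2.39 to 0.68 in animal 26, from 1.12 to -0.36 in animal 32 and from 0.56 to -0.30 in animal 34. The smallest of these differences was -0.86, and 14 of the 9429 probes (0.148%) were lower in all 4 animals by at least as much. The size was taken from BCL2L11 itself, so BCL2L11 is among the 14 by construction. The mean difference was -1.23 ± 0.27 (2.34-fold lower; limma, adjusted p = 0.301), and 69 probes had a smaller unadjusted p-value. Across 14 settings it lay between -1.35 and -1.04 and the adjusted p between 0.0547 and 0.740, so it passed in none. Of the 2 eosinophil and basophil markers on the array, CCR3 differed by -1.05, -1.72, -2.52 and -0.94 in animals 25, 26, 32 and 34 (limma, adjusted p = 0.301), while HDC, well above background on 2 of 4 arrays on each day, differed by 0.060, -0.20, -0.37 and 0.32. The summed level of the T and natural killer cell markers was 2.87, 2.29, 1.54 and 2.83 times its day 0 value, and 1.68, 2.46, 1.33 and 1.49 times without GZMB. Of these 13 markers 11, 12, 11 and 6 were higher on day 7, and in animal 34 their median difference was -0.21. The part of these cells in the BCL2L11 difference was not tested.

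BAX was higher on day 7 in 3 of 4 animals. It went from -1.97 to -1.28 in animal 25, from -2.80 to -0.84 in animal 26 and from -1.98 to -0.65 in animal 34, and from -2.33 to -2.65 in animal 32. The mean difference was 0.92 ± 0.39 (limma, adjusted p = 0.373), with 4.83% of probes further up. Beside the T and natural killer cell markers just given, the summed level of 4 B and plasma cell markers was 1.85 to 2.27 times its day 0 value in the 4 animals, with 4, 4, 4 and 2 of the 4 higher in animals 25, 26, 32 and 34. The part of these cells in the BAX values was not tested.

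For the anti-apoptotic members and BAK1 the animals went in different directions. BCL2A1 differed by 0.14 ± 0.26, with animal 25 lower (-0.38) and the other 3 higher (0.15 to 0.51). BCL2L1 differed by -0.42 ± 0.54 and ranged from -2.22 in animal 34 to 1.33 in animal 32. BCL2 in row 42 differed by 0.12 ± 0.42, and BAK1 by 0.03 ± 0.48. The last 3 of these had their lowest value in animal 34, at -2.22, -1.37 and -1.91, on the array with the fewest spots above background; without that animal the differences were 0.18, 0.62 and 0.68 and none passed (limma, adjusted p 0.898, 0.374 and 0.289). BCL2 in row 186 was not tested and differed by -0.40, 0.48, 0.91 and -0.87 in animals 25, 26, 32 and 34.

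**Figure D3:**
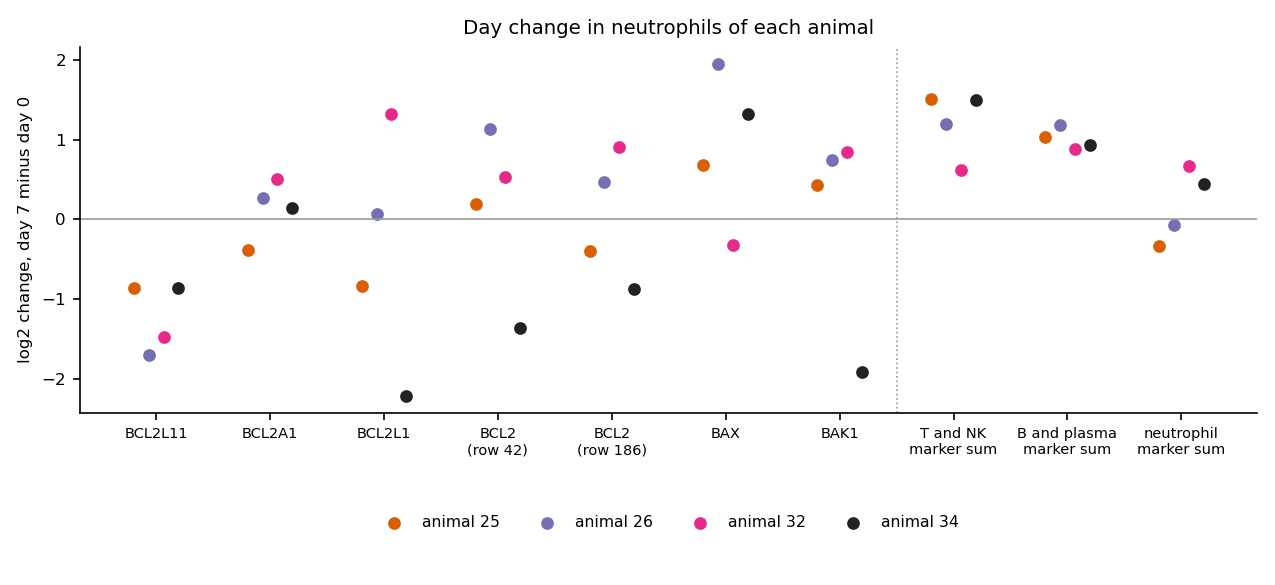
Difference between day 7 and day 0 (log2 scale) in the neutrophils of each of the 4 animals for the member probes, and right of the dotted line for the summed level of 3 marker lists. BCL2L11 is below 0 in all 4 animals, and the T and B cell marker sums are above 0 in all 4; GZMB makes up most of the T and NK sum, and 6 of its 13 markers were higher in animal 34.

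In liver no member passed between day 0 and day 7, against 3.98% of 10935 probes over the array (292 or 2.67% higher and 143 or 1.31% lower; limma). The members' differences ran from -0.51 to 0.11. BCL2L11 was lower in 3 of 3 animals, by 0.20, 0.30 and 0.16 in animals 58, 61 and 66, with a mean of -0.22 ± 0.10 (limma, adjusted p = 0.357). Of all probes tested in liver, 21.1% lay further down, and the share that was lower in 3 of 3 animals was not counted. BCL2 in row 186 was lower in 3 of 3 animals too, by 0.26, 0.44 and 0.84, with a mean of -0.51 ± 0.15 (limma, adjusted p = 0.174). That probe lies near the edge of the array, where the median of the 824 probes within 8 rows on each side was -0.41, and its difference was 0.11 once a trend along the rows was removed; BCL2 in row 42 differed by -0.21 ± 0.15. BAX was higher in animals 58 and 66 (0.52 and 0.33) and lower in animal 61 (-0.51). Of 10 skeletal muscle markers tested, 9 rose in liver by day 7, where 11 markers together reached 5.16 to 20.1, against 0.296 to 0.836 on day 0; their part in the members' values was not tested.

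The difference of the day change between neutrophils and liver was tested in 1 model over all arrays, in which 1.14% of 8841 probes passed (37 or 0.419% higher and 64 or 0.724% lower) and no member did. BCL2L11 had the smallest p of the members, with a day change in neutrophils minus that in liver of -1.01 ± 0.30 (limma, adjusted p = 0.181). BAX differed by 0.80 ± 0.54 (adjusted p = 0.560), and the 4 others between -0.41 and 0.44. No member's day change was shown to differ between the tissues.

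**Figure D4:**
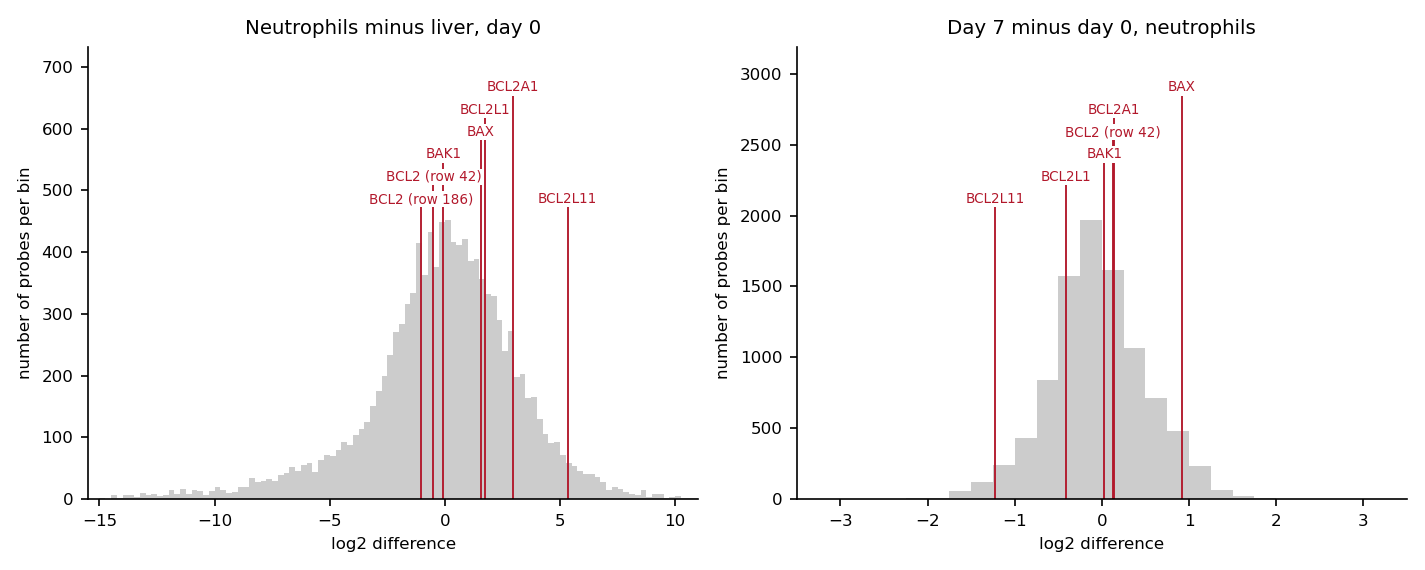
Number of probes by log2 difference, in bins of 0.25, for neutrophils minus liver on day 0 (left, 11498 probes) and for day 7 minus day 0 in neutrophils (right, 9450 probes), with the member probes as red lines. BCL2L11 lies towards the upper end on the left, with 3.57% of probes beyond it, and towards the lower end on the right, with 2.36% beyond it.

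Other genes of the family and of the routes around it were read from lists, by counts and by the up to 3 genes per direction with the smallest p on day 0. Among the close relatives, the anti-apoptotic BCL2L2 (BCL-W) was lower in neutrophils (-3.00 ± 0.61, limma, adjusted p = 0.00176). It was well above background on 2 of 4 neutrophil arrays, and its difference ran from -3.34 to -1.24 over 15 other settings. The effector relative BOK was lower (-5.45 ± 0.18, limma, adjusted p = 4.06e-08). BMF, a BH3-only protein bound to the cytoskeleton in healthy cells, was higher (2.86 ± 0.22, limma, adjusted p = 5.10e-06), with its second probe at 4.11. In liver that second probe was not well above background on every array of either day. BAD, BBC3, PMAIP1, BIK and HRK, the other BH3-only genes of the list, had no probe matched here.

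Of 5 distant relatives measured, 3 were higher and 1 lower on day 0. BCL2L15 was higher by 9.71 ± 0.23 (limma, adjusted p = 1.39e-08), at -4.27 ± 0.32 (SD, n = 3) in liver and 5.44 ± 0.32 (SD, n = 4) in neutrophils. BNIP3L, a mitochondrial receptor for the removal of mitochondria, was higher by 2.57 ± 0.16 and BNIP2 by 2.70 ± 0.21. BCL2L14 was not well above background on any neutrophil array and was at least 4.83-fold lower there, against the dimmest signals measured on those arrays (limma, adjusted p = 1.04e-06).

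Downstream of the mitochondria, 5 of 11 genes were higher, 5 lower and 1 did not pass, with a median of -0.12. These counts stand beside 43.5% of all probes called higher and 39.7% called lower. Among the higher ones were DFFB, the nuclease that cuts DNA in dying cells (3.05 ± 0.18), and APAF1, the scaffold that activates caspases (2.09 ± 0.19). The 5 lower ones all code for proteins that reside in mitochondria: ENDOG (-3.86 ± 0.22), cytochrome c, CYCS (-3.04 ± 0.28), and the outer membrane channels VDAC1 (-1.71 ± 0.28), VDAC2 and VDAC3. HTRA2, among the higher ones, also codes for a mitochondrial protein, and was well above background on 1 of 3 liver arrays. DIABLO, the 1 gene that did not pass, codes for a mitochondrial protein too, with mean levels of -3.09 in liver and -3.21 in neutrophils. By day 7 VDAC2 had turned, with mean levels of 0.31 in liver and 1.52 in neutrophils. Its probe lies near the edge of the array. ENDOG, CYCS, VDAC1 and VDAC3 again had lower mean levels in neutrophils on day 7.

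Among the inhibitors of apoptosis, BIRC3 (5.18 ± 0.17) and XIAP (2.42 ± 0.17, with its second probe at 2.10) were higher and BIRC5 did not pass. In the death receptor pathway 7 of 8 genes tested were higher and none lower, with a median of 3.23: the 3 with the smallest p were the receptor FAS (9.23 ± 0.36) and the receptors of tumour necrosis factor TNFRSF1B (4.52 ± 0.19) and TNFRSF1A (3.70 ± 0.22). Of the genes of survival signalling upstream of the family, 8 of 8 tested were higher, with a median of 3.52, among them the kinases PIM1 (5.63 ± 0.20) and AKT1 (4.23 ± 0.16) and the transcription factor STAT5B (3.59 ± 0.18). On day 7, 6 of 8 tested genes of the death receptor pathway and 4 of 7 of survival signalling were higher and none lower, with 35% of all probes called higher. The day 0 counts stand beside 43.5% of all probes called higher, and several of these genes are expressed by most white blood cells; the part of the lymphocyte transcripts in them was not tested. The genes named here for their p, up to 3 per list and direction, kept an adjusted p under 0.05 on day 0 in every setting in which they were tested (limma).

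**Figure D5:**
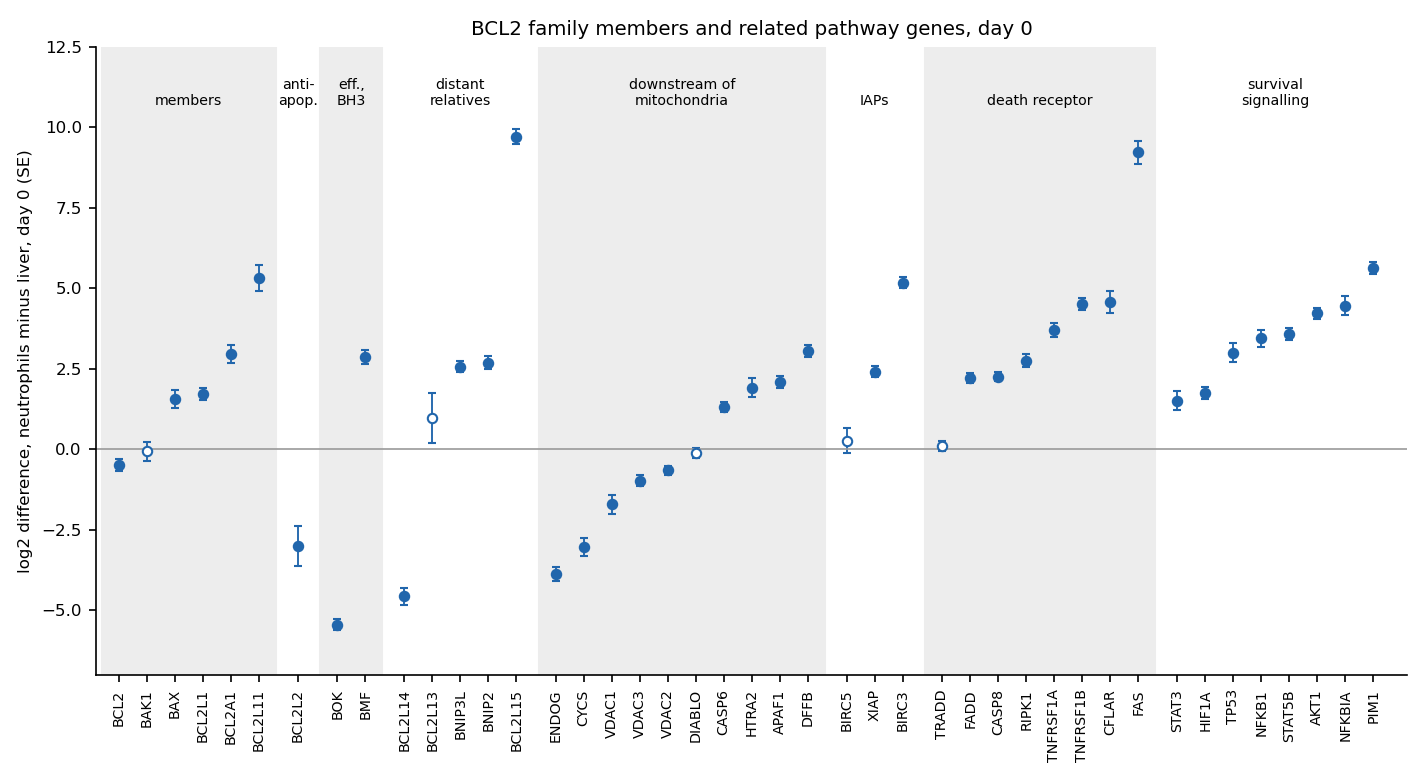
Difference between neutrophils and liver on day 0 (log2 scale, with the SE of the limma fit) for the members and for genes of 7 related lists that were tested, without 1 gene that is not reported; filled points passed the threshold of 0.05. FAS and BCL2L15 lie above 9, BOK at -5.45, and the genes downstream of mitochondria fall on both sides of 0.

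Between day 0 and day 7, 3 genes of these lists passed, all in liver: BCL2L13, a mitochondrial relative, was higher (1.21 ± 0.15; limma, adjusted p = 0.0476; from animals 58 and 66 alone, at 1.08 and 1.35, since the day 0 spot of animal 61 was left out as an outlier), VDAC2 was lower (-1.62 ± 0.22; 0.0370) and TRADD, the adaptor of the tumour necrosis factor receptor, was lower (-0.73 ± 0.10; 0.0394). None of the 3 kept its call when the trend along the spot rows was removed, with differences of 1.15, -0.53 and -0.04; VDAC2 and TRADD lie in rows 192 and 187, near the edge. Without animal 58 they missed the threshold too (adjusted p 0.262, 0.194 and 0.221). In neutrophils none of the lists had a gene past the threshold on day 7.

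The genes whose levels ran closest to each member were found by the root mean square difference of the log2 levels, centred per probe, over the 14 arrays, among 11453 probes. IER5L (0.34) and TIMP2 (0.48) ran closest to BCL2L11, and SLCO3A1 (0.29) and PCF11 (0.30) to BCL2A1. MYO1A (0.23) and EPOR (0.26) were nearest to BCL2L1, DNMT1 (0.30) and ENO1 (0.33) to BCL2, and EHMT2 (0.29) and TBXA2R (0.30) to BAK1. The nearest to BAX were CD8A (0.29) and RCAN3 (0.42), and CD8A is one of the T and natural killer cell markers above. In neutrophils CD8A differed between day 7 and day 0 by 0.82 and RCAN3 by 1.08, where BAX differed by 0.92. The match was made over these same arrays, so a like difference was built into the choice.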

How the data were processed

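Gene expression was measured on 14 single-colour arrays. Per the file headers, the spot intensities are signals of Agilent Feature Extraction 9.5.1.1 (9.5 in the submitters' processing notes), background-subtracted and detrended within each array, with surrogates for low values; mean and background intensities, for 1 alternative, are raw. The authors' deposited log2 values equal log2 of these signals minus a constant within 0.013 of the array's 75th percentile. Flags and grid positions (other columns) are as deposited, per the file headers. As to a genome build, none is given in the sources used here.

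Control and outlier spots were left out, log2 signals minus the 75th percentile averaged per probe, and probes tested where at least 1 of the groups compared had them well above background throughout. Names came from the files or from the RefSeq gene table of ARS-UCD2.0, used for names only. limma 3.58.1 (R 4.3.3, lmFit and eBayes) was tested on simulated data and used throughout, two-sided, with Benjamini-Hochberg adjustment over all probes and a threshold of 0.05. Errors are the moderated standard errors of the fits unless marked SD. Day comparisons had the animal as a block, the pairing being that of the animal numbers in the labels; the correlation of paired deviations from the group means was 0.03 to 0.65. No library depth exists for arrays; the number of arrays limits the precision. A gene with several probes is given by its brightest. Bounds ("at least") set the mean of the brighter group against, per array of the other group, the larger of 2 signals: the probe's own, and the dimmest that was well above background. The genes named are all members, the up to 3 per list and direction with the smallest p on day 0, any list gene past the threshold between days, and the 2 nearest profiles per member; others that complete a count of 5 or fewer were added after their values were seen. 1 list gene is not reported here. Members and lists were chosen with earlier results of these data known. Alternatives were other background, scaling, filter, probe, block and sample choices.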

Additional observations from a re-analysis of the deposited data

Results flagged for a closer look

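In groups of 4 arrays or animals, a value was marked when its gap to the nearest other value, over the range of the group, was above Dixon's 95% critical value; 2 of 21 groups of member values were, where chance marks about 1 in 20. On day 7 the BCL2A1 level in neutrophil animal 32 (-0.26) lay above the other 3 (-1.70 to -1.54). The BAK1 difference between day 7 and day 0 in animal 34 was -1.91, against 0.43 to 0.85 in the other 3; its day 7 array had the fewest spots above background.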

How the results depend on the processing

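The calls of BCL2L11, BCL2A1, BCL2L1 and BAX as higher in neutrophils on day 0 held in all 16 settings run, with differences of 4.22 to 5.64, 1.98 to 3.27, 0.96 to 2.03 and 1.07 to 1.87. Median scaling moved the median of all probes from 0.12 to 0.42, and the differences of the members with it. With 3 and 4 animals, only large differences between days can pass.

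BCL2 (row 42) was no longer called lower on day 0 (0 members lower) with normexp and quantile normalization, quantile normalization alone, median scaling or the animal as a random block over all arrays; leaving out 1 animal gave 0 to 1 members lower. With probes above background on every array, 2850 probes were lower on day 0 and 1892 on day 7. In liver between days, 12 probes were higher and 5 lower with the row trend removed, 0 and 0 with no filter (the tests then include probes that were never above background), 135 and 42 in 1 fit over all arrays, and 0 to 115 and 0 to 44 without 1 animal (both 0 without animal 58). In neutrophils the fit over all arrays gave 22 and 2. For the difference between tissues the counts were 1 and 3 with the row trend removed, 10 higher with no filter, and 1 to 124 higher and 11 to 146 lower without 1 animal. The cause of these shifts was not tested.

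Pairing by animal: without the block, 154 probes were higher and 56 lower in liver, 0 and 0 in neutrophils, and 17 were higher for the difference between tissues; no member's call changed, while BCL2L13 and VDAC2 missed the threshold in liver (limma, adjusted p 0.866 and 0.0628). No paired analysis was possible between neutrophils and liver because they came from different animals.

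The sign turned for some differences that did not pass in the setting reported. BAK1 between tissues on day 0 was 0.079 with normexp and quantile normalization, 0.096 with quantile normalization, 0.24 with median scaling and 0.15 with the row trend removed, and -0.20 to 0.17 without 1 animal; on day 7 it was -0.26 to 0.63 without 1 animal. BCL2 (row 42) between tissues on day 7 was 0.058 with normexp, 0.059 with quantile normalization and 0.14 with median scaling, and -0.50 to 0.37 without 1 animal. In liver between days, BAX was -0.0047 with normexp and -0.091 to 0.43 without 1 animal, BCL2L1 was 0.033, 0.021 and 0.012 with quantile normalization, median scaling and the row trend removed and -0.090 to 0.049 without 1 animal, BCL2 (row 186) was 0.11 with the row trend removed, and BAK1 was -0.22 to 0.046 without 1 animal. In neutrophils between days, leaving out 1 animal gave -0.21 to 0.62 for BCL2 (row 42), -0.998 to 0.18 for BCL2L1 and -0.25 to 0.68 for BAK1, and for the difference between tissues -0.0011 to 0.83, -0.99 to 0.19 and -0.12 to 0.80.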
